A study of Neurospora crassa with 11 samples.

Results

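The genes described here build, remodel or decorate the cell wall of the filamentous fungus Neurospora crassa. They are the genes whose deposited product name holds the word chitin, glucan or cell wall, in any case, and none of the words endoglucanase, cellobiohydrolase or 1,4-beta, which mark enzymes of plant cellulose and xylan. The rule found 87 of the 9600 annotated genes. RNA-seq of whole fungus gave 11 libraries. Each culture had 16 h in Vogel's sucrose medium and, after washing, received new Vogel's medium that held xylan, sucrose or no carbon source. The wild type, OR74A (FGSC2489), gave 3 libraries on xylan. A strain of the same background whose xlr-1 gene was replaced (deltaxlr-1::HygR) gave 4 libraries on xylan. The remaining strain carried the A828V form of xlr-1 behind the ccg1 promoter at the his-3 locus (his-3::p_ccg1::xlr-1-A828V), in the deltaxlr-1::HygR background and labelled mat a. It gave 3 libraries without carbon and 1 on sucrose. The protein XLR-1 is the transcription factor that turns on xylan-degrading enzymes, and the A828V form is known as a more active one. The study asked how XLR-1 and the factors CLR-1 and CLR-2 act in the breakdown of plant walls.

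A fungal wall is a mesh of chitin and beta-1,3-glucan to which other glucans and glycoproteins are joined. Chitin and glucan chains are spun out through the plasma membrane by synthases. Outside the membrane, transglycosylases cut and rejoin the chains, hydrolases trim them, and proteins are fixed to the mesh by a GPI anchor or by their sugar chains. Growth at the hyphal tip, branching and the formation of conidia, the asexual spores, all need this remodelling.

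By product name the 87 genes fell into 8 roles. There were 7 chitin synthases, 5 partners of chitin synthases, 4 glucan synthase genes with their regulator, 10 transglycosylases and Dfg5-family enzymes, 18 glucanases and glucosidases, 14 chitinases, chitin deacetylases and chitin-binding proteins, and 22 structural wall proteins and biogenesis proteins. The last 7 act on other polymers and entered through a shared word. They were gh6-1, gh6-2, gh6-3 and gh7-4, which belong to cellulase families, the glycogen branching enzyme NCU05429, the amylase-family gene gh13-3 and the YteR-type hydrolase NCU05063. The label of wall chitin and glucan therefore held for 80 of the 87 genes by product name. In the other direction, the excluded words also removed 2 wall genes, NCU06381 and NCU09175, named as GPI-anchored beta-1,3-endoglucanases.

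Total gene counts ran from 10317390 to 18927605 per library. Levels of single genes are given in CPM, counts scaled to library size and TMM factor. The deleted gene checked the labels: xlr-1 stood at 136, 158 and 112 CPM in wild type against 11.8, 9.79, 3.28 and 5.62 CPM in the deletion (log2 fold change -4.15, SE 0.39, edgeR adjusted p = 0.000342). One label did not match: matA-1, a gene of the mating type opposite to mat a, had 143, 130 and 107 reads in the A828V libraries without carbon, labelled mat a, and 12 reads on sucrose. Wild type had 91 to 125 matA-1 reads and the deletion had 0 in all 4 libraries. Wild type and deletion thus differed in this gene as well as in xlr-1, and the label of the deletion gives no mating type. The gene at the integration site, his-3, had a mean of 97.6 CPM in the A828V strain without carbon, 412 on sucrose and 290.1 in wild type. Same-numbered libraries of wild type and deletion had correlations of their deviations over all genes of 0.64, 0.264 and 0.252 for numbers 1, 2 and 3, and pairs of different number had -0.563 to 0.247. The 6 conidiation markers con-6, con-8, con-10, con-13, eas and fl, which are switched on during spore formation, summed to 228.6 to 2426 CPM in wild type, 415 to 2049 CPM in the deletion and 610.3 CPM on sucrose. In the A828V libraries without carbon they summed to 19808 to 23370 CPM, of which eas alone had a mean of 18070 CPM. All 6 had reads in every library, except that con-13 had 0 in deletion library 4.

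Per unit of transcript length, wall proteins were the most abundant of these transcripts. Levels between genes are compared in FPKM, the authors' length-scaled level, as the mean over 11 libraries. The anchored wall proteins acw-5, acw-6 and acw-9 led with 1313, 1173 and 919 FPKM. They were followed by the glucanosyltransferase NCU06781 at 720.3 FPKM and the non-anchored wall protein ncw-1 at 651 FPKM. In all, 23 of the 87 genes reached a mean of 100 FPKM and 9 stayed under 1 FPKM. Among synthases, chs-1 was the highest chitin synthase at 87.2 FPKM and chs-6 the lowest at 2.53 FPKM. The single beta-1,3-glucan synthase gene, do, had 132 FPKM, against 48.2 and 5.56 FPKM for the alpha-1,3-glucan synthase genes NCU08132 and NCU02478. Chitinases were mostly scarce: 9 of the 14 genes of that role had means under 5 FPKM. The endochitinase gh18-5, at 189 FPKM, was an exception, but its locus overlaps another gene and its count was low for that FPKM. Together the 87 genes took 1.78% to 1.86% of all gene counts in A828V without carbon, 2.25% to 2.47% in wild type on xylan, 2.17% to 2.79% in the deletion and 3.18% on sucrose.

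**Figure D1:**
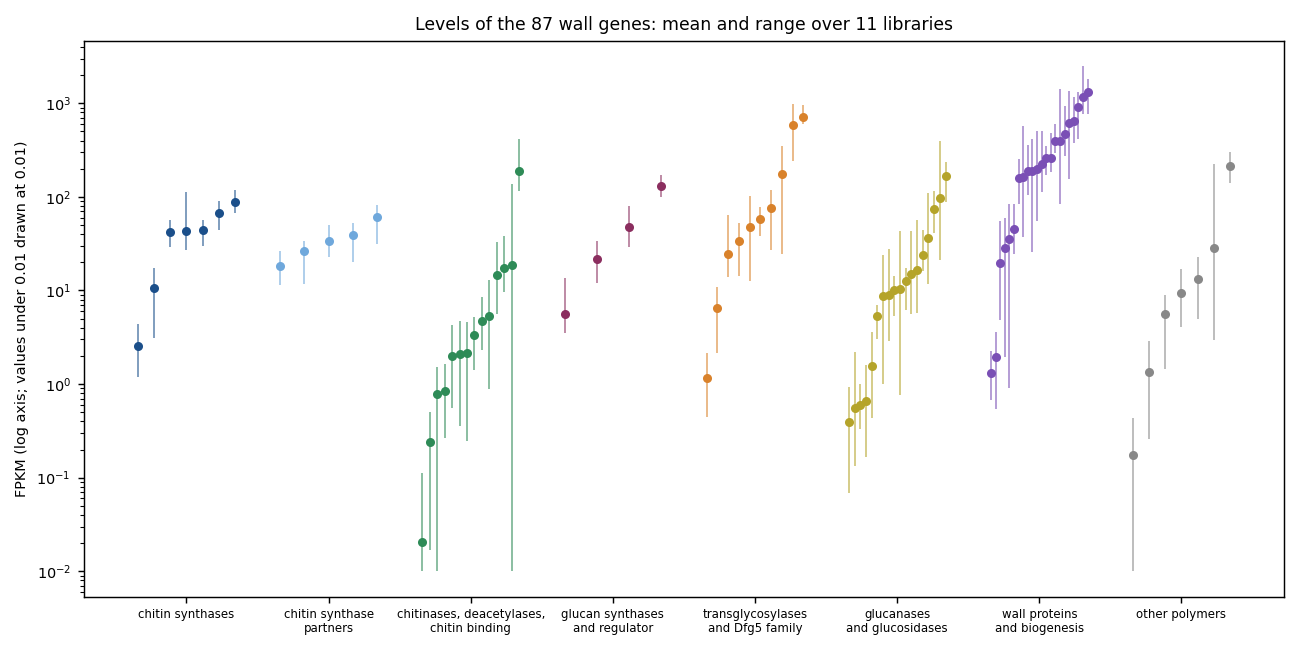
Mean FPKM over 11 libraries (points) and lowest to highest library (lines) on a log axis for each of the 87 genes, ordered by level within each role. Wall proteins reach 1313 FPKM, while most chitinases lie under 5 FPKM.

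Without carbon, the A828V strain had far less transcript of a set of wall proteins and wall-remodelling enzymes than on sucrose. Of the 85 genes tested, 14 were lower without carbon (16.5%, against 10.4% of all 8557 genes tested) and 3 were higher (3.53%, against 8.39% of all genes). The median log2 fold change was -0.09 over the 85 genes and 0.11 over all genes tested. The falls lay among wall proteins (8 of 22), transglycosylases (2 of 10), chitinases (2 of 13 tested), glucanases (1 of 18) and glucan synthases (1 of 4). No chitin synthase, synthase partner or gene of other polymers passed the test. Because sucrose had 1 library, this fit assumed that it varied like the other groups. With limma on the deposited FPKM, where the median of all genes lay at 0.45, the split was 9 higher and 9 lower, and the falls of NCU10852, NCU01393, acw-12, NCU00399 and ncw-1 were lost. Leaving out A828V library 1, 2 or 3 left 1, 0 and 0 genes higher and 10, 11 and 11 lower. The shares of all genes called in these alternative fits are not given here. Their counts are therefore not read as particular to wall genes. In the same comparison, the conidiation markers con-6, con-8 and con-10 were called higher. The other markers, con-13, eas and fl, also had higher fitted levels without carbon and were not called. Of these, eas went from 454 CPM on sucrose to a mean of 18070 CPM (log2 fold change 5.31). The part of the markers in the wall gene changes was not tested. In bulk RNA, fewer cells of a type and less RNA per cell cannot be told apart.

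Set against wild type on xylan, the A828V strain without carbon had 12 genes lower (14.1%, against 11.5% of all genes tested) and 8 higher (9.41%, against 9.29%). Strain and medium differ together here, so their effects cannot be told apart. The falls were 6 of 22 wall proteins, 4 of 10 transglycosylases and 2 of 18 glucanases. The rises were 3 chitinases, 2 transglycosylase-family genes, 1 glucanase, 1 wall protein and gh13-3. With limma on FPKM, where the median of all genes lay at 0.30, the split was 15 higher and 11 lower. Without wild-type library 1, 2 or 3 there were 2, 5 and 3 genes higher and 14, 13 and 12 lower, and without A828V library 1, 2 or 3 there were 2, 2 and 1 higher and 8, 9 and 6 lower. Here too the shares of all genes in the alternative fits are not given. Of the 6 conidiation markers, 4 were called higher (con-6, con-8, eas and fl). The others, con-10 and con-13, had log2 fold changes of 1.65 and 2.11 and were not called. The part of the markers was not tested. This comparison shares its A828V libraries with the sucrose comparison.

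Between deletion and wild type on xylan, no wall gene passed the test in the main fit, which did not use the replicate number. The strains also differed in matA-1 reads, so an effect of the deletion and one of mating type cannot be told apart. Of the 85 genes, 0 were higher (0.0234% of all genes were) and 0 were lower (0.573% of all genes). In edgeR 13 had an unadjusted p under 0.05. The share of all genes at that unadjusted p is not given here, so the 13 are not read as particular to wall genes. DESeq2 called 2 higher, NCU03914 and NCU12033, picked after their values were seen, and limma called 0. The locus of NCU03914 overlaps another gene. With the replicate number as a block, and wild type and deletion alone in the fit, the deacetylase NCU09582 was called lower, as it was without wild-type library 2 or 3. The deletion libraries all lay above wild type for 8 genes (4.70% of all genes did so) and all below it for 5 (5.01% of all genes). The 8 were the chitin synthase gene chs-3, the chitinases NCU12033, gh18-4 and gh18-8, the glucanase-role genes NCU03914 and NCU08097, and gh76-7 and NCU09672 of the transglycosylase role. The 5 were acw-2, acw-7, gh16-1, NCU05974 and NCU09582. This comparison shares the wild-type libraries with the one above.

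**Figure D2:**
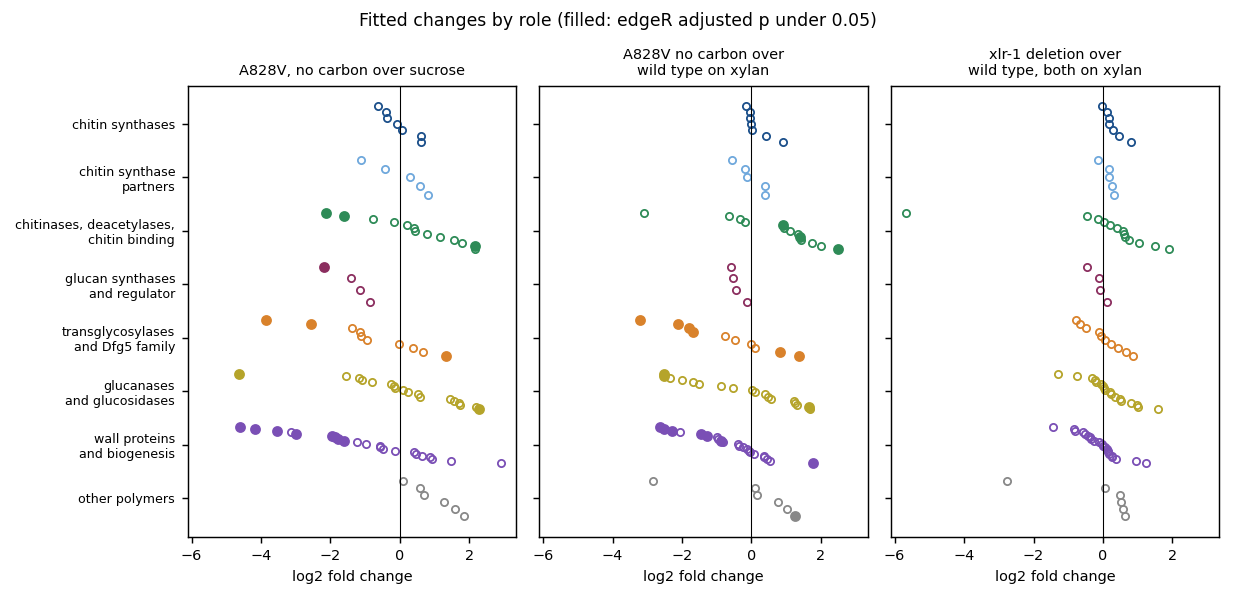
Fitted log2 fold change of each tested gene by role in the 3 comparisons; filled points have an edgeR adjusted p under 0.05. Chitin synthases stay unfilled in all 3 panels, and the 8 filled wall proteins in the left panel all lie below 0.

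Chitin synthases make the chitin chains, and none of their 7 genes passed the test in any comparison. Of all genes tested, 8.39% rose and 10.4% fell without carbon against sucrose. Against wild type, 9.29% rose and 11.5% fell in A828V, and 0.0234% rose and 0.573% fell in the deletion. With 7 genes, 0 calls cannot be set apart from these shares. The highest, chs-1 (chromosome V, 1835177 to 1839458), had 280.2, 355 and 294 CPM in wild type on xylan, 279.5, 403, 376 and 334 CPM in deletion libraries, 310.3, 302 and 285 CPM in A828V without carbon and 390.4 CPM on sucrose. All 4 groups lay close together. The log2 fold change without carbon against sucrose was -0.39 (SE 0.30, edgeR adjusted p = 0.386). For the other 6, chs-3, chs-4, chs-5, chs-6, NCU04350 and NCU05239, that change ran from -0.63 to 0.60, with none called. Against wild type the A828V strain gave log2 fold changes from -0.15 (chs-5) to 0.90 (chs-6), and the deletion from -0.02 (NCU05239) to 0.80 (chs-3), again with none called. For chs-3, with the highest value in the deletion, the libraries had 163, 426, 164 and 244 CPM there against 137, 159.7 and 132 CPM in wild type. All 4 deletion libraries lay above all wild-type ones, library 2 far above the others and the lowest only just (edgeR adjusted p = 0.309). Library 2 was also the library with the largest share of reads not assigned to a gene, 29.57%, of which the part in this value was not tested.

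The partners of chitin synthases carry the enzymes to the membrane or activate them. None of the 5 was called in any comparison, which with so few genes cannot be set apart from the shares of all genes given above. The export chaperone NCU05720, which in yeast releases chitin synthase from the endoplasmic reticulum, had 65.02, 124 and 159 CPM in wild type, 154, 158 and 143 CPM in A828V without carbon and 87.1 CPM on sucrose. Its wild-type libraries spanned both other groups. The activators NCU02592 and NCU09322 and the regulator NCU02351 had changes between sucrose and no carbon of -0.44, 0.57 and 0.28 on the log2 scale. The fifth, NCU07435, named after the yeast transport protein CHS5, had 41.9 to 49.4 CPM without carbon and 101 CPM on sucrose, a log2 fold change of -1.12 (SE 0.39, edgeR adjusted p = 0.0687).

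All 4 genes of glucan synthesis were highest in the sucrose library, and 1 passed the test. The beta-1,3-glucan synthase gene do (chromosome VII, 600470 to 608294), whose product makes the main glucan of the wall, had 828.04, 947 and 759.9 CPM in wild type, 762, 711, 1206 and 967 CPM in deletion libraries, 876, 708 and 753 CPM in A828V without carbon and 1405 CPM on sucrose. The sucrose library was the highest of the 11, and the other groups overlapped. Its log2 fold change without carbon was -0.85 (SE 0.35, edgeR adjusted p = 0.12). Alpha-1,3-glucan synthase makes a second glucan that coats the wall in many fungi. Its gene NCU02478 (chromosome I, 2443729 to 2451821) fell without carbon, with 32.2, 31.3 and 27.2 CPM there against 136 CPM on sucrose. This was a log2 fold change of -2.17 (SE 0.33, edgeR adjusted p = 0.00373). Wild type on xylan had 45.7, 56.6 and 33.8 CPM and the deletion 30.4, 48.6, 42.1 and 48.3 CPM, so NCU02478 stood apart in the sucrose library alone. The more abundant gene NCU08132 had 315, 372 and 285 CPM without carbon and 864 CPM on sucrose, and its log2 fold change of -1.41 missed the threshold (edgeR adjusted p = 0.0549). The regulator cot-2, known from mutants that grow as tight colonies at high temperature, had 54.1 to 74.4 CPM without carbon and 136 CPM on sucrose, a change of -1.14 (edgeR adjusted p = 0.0777).

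Transglycosylases cut a glucan or chitin chain and join the end to another chain. NCU05974, annotated as the glucanosyltransferase Mwg1 (chromosome VI, 3243390 to 3245797), had 922 CPM on sucrose, 495, 442 and 818 CPM in wild type on xylan, 347, 379, 428 and 333 CPM in deletion libraries and 52.99, 92.95 and 44.4 CPM in A828V without carbon. The 4 groups did not overlap, in that order. It fell without carbon by a log2 fold change of -3.86 (SE 0.43, edgeR adjusted p = 0.00201) against sucrose and -3.21 (SE 0.36, edgeR adjusted p = 0.00108) against wild type on xylan. Its difference between deletion and wild type, -0.65 on the log2 scale, was not called (edgeR adjusted p = 0.369).

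The Gel family elongates beta-1,3-glucan, and all 4 members had lower fitted levels without carbon than on sucrose, with gel-3 called. Second among them per length at 582 FPKM, gel-3 (chromosome V, 672325 to 674860) had 2768 CPM on sucrose, 890.0, 1689.5 and 1878 CPM in wild type, 813, 1258, 1788 and 1878 CPM in deletion libraries and 407, 555 and 435 CPM without carbon. Libraries without carbon were below all others, and wild type and deletion overlapped. The log2 fold change was -2.57 (SE 0.49, edgeR adjusted p = 0.00765) against sucrose and -1.67 (SE 0.39, edgeR adjusted p = 0.0168) against wild type. That second call was lost without A828V library 1 or 3, with log2 fold changes of -1.94 to -1.53 over the libraries left out. The scarce gel-5 had 20.4, 30.7 and 29.3 CPM in wild type and 9.79, 5.02 and 8.20 CPM without carbon, where it was lower by -1.80 (SE 0.39, edgeR adjusted p = 0.0127), a call lost without A828V library 2 or 3. On sucrose gel-5 had 20.05 CPM, and its log2 fold change of -1.39 in that comparison was not called (edgeR adjusted p = 0.0838). The member with the highest FPKM, the Gel2-type gene NCU06781, had 919, 1028 and 1112 CPM without carbon and 1980.5 CPM on sucrose, and its log2 fold change of -0.96 was not called (edgeR adjusted p = 0.0967). The fourth, gel-4, gave -1.11 in that comparison and 0.11 against wild type, neither called.

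Enzymes of the Dfg5 family, which help fix glycoproteins to wall glucan in Neurospora, also split. gh76-5 (chromosome IV, 5252808 to 5255015) had 145, 237 and 125 CPM in wild type on xylan and 52.6, 124, 84.5 and 219 CPM in the deletion. It had 44.8, 33.3 and 39.6 CPM in A828V without carbon and 30.3 CPM on sucrose. Thus it was low in both media of the A828V strain, and wild type and deletion overlapped. It was lower without carbon than in wild type on xylan by a log2 fold change of -2.11 (SE 0.47, edgeR adjusted p = 0.0145), a call lost when any 1 A828V library was left out. gh76-6 went the other way, with 112, 94.5 and 120.3 CPM without carbon, 43.1 CPM on sucrose and 48.3, 83.3 and 54.1 CPM in wild type. Its rises of 1.34 over sucrose (edgeR adjusted p = 0.0343) and 0.82 over wild type (edgeR adjusted p = 0.0413) were lost in all 3 and in 5 of the 6 fits that leave out 1 library. gh76-7 had 106 to 166 CPM in every library and was not called. Of the Crf1-type genes, which join chitin to glucan, NCU09672 rose against wild type by 1.37, with 2.002 to 3.01 CPM (edgeR adjusted p = 0.0402). That call was lost in all 6 fits with a library left out, and NCU09117 was not called.

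The glucanase gh16-1 (chromosome V, 3747192 to 3750386), annotated as a mixed-linked glucanase, had the largest fitted fall between sucrose and no carbon, just past that of ncw-2. It had 1359 CPM on sucrose, 252, 232 and 462 CPM in wild type on xylan, 153, 169, 206 and 226 CPM in deletion libraries and 48.03, 69.3 and 47.6 CPM without carbon. The 4 groups did not overlap. Without carbon it fell by a log2 fold change of -4.63 (SE 0.41, edgeR adjusted p = 0.000734) against sucrose, with all 3 libraries lower, and by -2.52 (SE 0.33, edgeR adjusted p = 0.0018) against wild type. Both calls held in every fit that left out 1 library. In the deletion the log2 fold change was -0.74, with 4 of 4 libraries below all wild-type libraries, and was not called (edgeR adjusted p = 0.291).

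The glucosidase NCU09904 (chromosome I, 17441 to 19615), which releases glucose from beta-1,3-glucan, was high on xylan in wild type. It had 58.2, 28.5 and 24.9 CPM there, 24.99, 16.96, 10.3 and 7.75 CPM in the deletion, 6.62, 6.46 and 6.38 CPM in A828V without carbon and 7.12 CPM on sucrose. Both media of the A828V strain were thus low, unlike gh16-1. It was lower without carbon than in wild type on xylan by -2.52 (SE 0.48, edgeR adjusted p = 0.00827), in every fit with a library left out. The deletion gave -1.31 (edgeR adjusted p = 0.21), with 1 deletion library just above the lowest wild-type library. Exo-beta-1,3-glucanase NCU08097 was the 1 glucanase that rose without carbon, from 1.41 CPM on sucrose to 5.32, 7.94 and 7.51 CPM, a log2 fold change of 2.29 (SE 0.55, edgeR adjusted p = 0.0189). Wild type had 2.50, 2.53 and 1.58 CPM, and the rise over it was 1.65 (edgeR adjusted p = 0.0101). The rise over sucrose was lost without A828V library 2 or 3, and the rise over wild type without library 3. Among the other 15, no glucanase was called. The mutanase-type alpha-1,3-glucanase NCU11405 ranged from 3.60 to 102 CPM within wild type, more than it differed between groups.

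**Figure D3:**
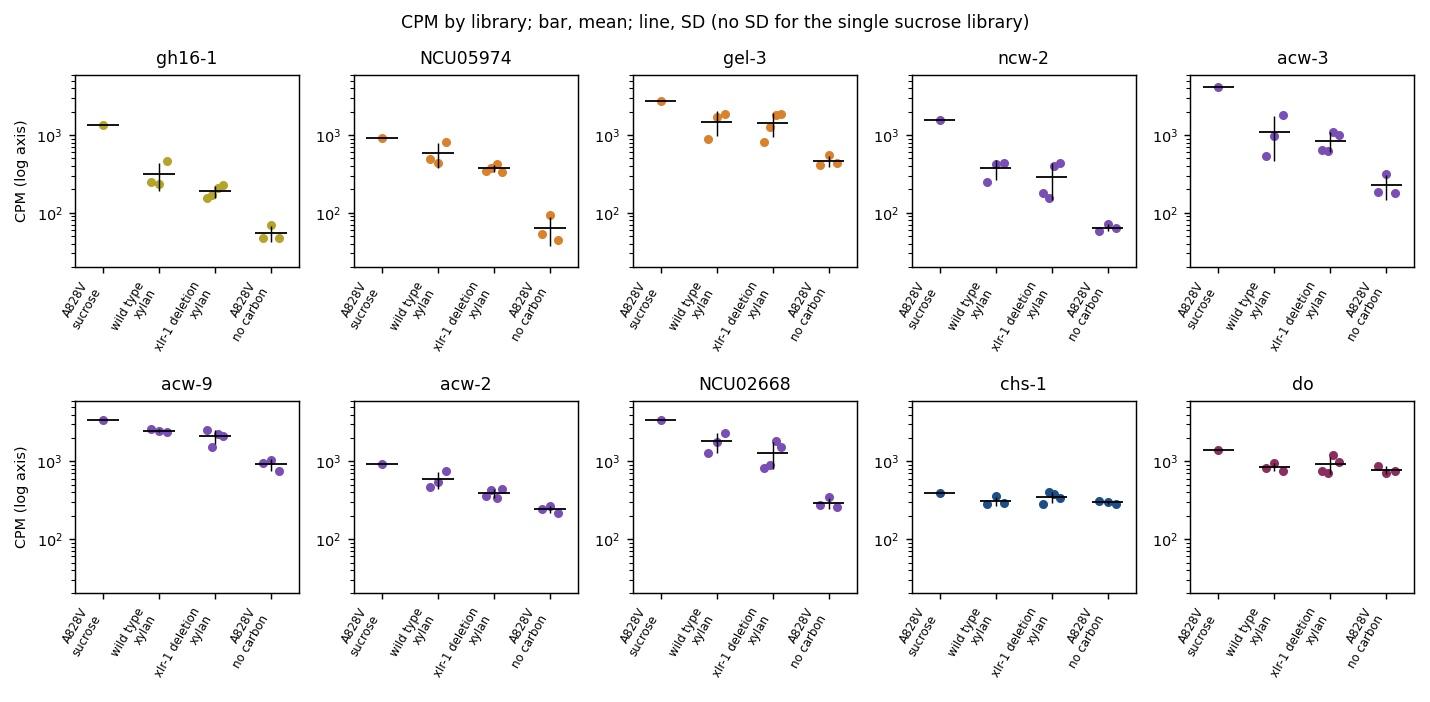
CPM of 10 genes in each library on a log axis, by group, with the mean (bar) and SD (line; none for the single sucrose library). gh16-1, NCU05974, ncw-2 and acw-3 are lowest in all 3 libraries without carbon, while chs-1 lies between 279.5 and 403 CPM in all 11 libraries.

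Chitinases hydrolyse chitin, and deacetylases turn it into chitosan. On the chitin-degrading side, exochitinase NCU10852 (chromosome I, 5374803 to 5378088) stood out on sucrose. It had 120.0 CPM there, 23.6, 28.7 and 30.2 CPM without carbon, 27.2, 23.6 and 43.1 CPM in wild type and 30.1, 55.8, 41.9 and 38.7 CPM in deletion libraries. The fall without carbon was -2.13 (SE 0.38, edgeR adjusted p = 0.00585), lost with limma on FPKM (adjusted p = 0.0582), and the remaining groups overlapped. Class III chitinase NCU01393, called but outside the 10 largest falls and picked after its values were seen, had 66.6 CPM on sucrose and 19.1 to 24.4 CPM without carbon (log2 fold change -1.62, edgeR adjusted p = 0.019). It was lost without A828V library 1 or 3. gh18-4 had 4.72, 7.32 and 5.69 CPM without carbon against 1.32 CPM on sucrose and 2.50, 2.38 and 1.88 CPM in wild type. Its rises of 2.16 (edgeR adjusted p = 0.0312) and 1.39 (edgeR adjusted p = 0.0251) were lost as calls in all 3 and all 6 fits with a library left out. The fitted changes in those fits were 1.97 to 2.30 and 1.21 to 1.53. gh18-6 had 18.4 to 20.8 CPM in wild type and, higher, 35.04 to 39.7 CPM without carbon (log2 fold change 0.92, edgeR adjusted p = 0.0301). That call was likewise lost in all 6, with fitted changes of 0.805 to 0.956.

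Of the chitinases that rose, NCU12033, a second class III enzyme, was the 1 that kept its call in every fit with a library left out. It had 1.0003, 0.383 and 1.34 CPM in wild type, 4.62, 6.17 and 4.82 CPM in A828V without carbon, 3.47, 3.72, 1.87 and 4.75 CPM in the deletion and 1.76 CPM on sucrose. The 8 other libraries all lay above the 3 of wild type. Against wild type it rose in A828V by 2.50 (SE 0.51, edgeR adjusted p = 0.01). The deletion gave 1.91 (edgeR adjusted p = 0.128), which DESeq2 called, with an adjusted p of 0.00498.

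The chitin deacetylase NCU09582 (chromosome VII, 932225 to 933187) had the lowest fitted value of any wall gene in the deletion. It had 99.6, 5.52 and 6.31 CPM in wild type on xylan and 1.37, 0.453, 0.97 and 0 CPM in the deletion. All 4 deletion libraries were below all wild-type ones, but 1 wild-type library was far above the other two. The log2 fold change was -5.68 (SE 1.17, edgeR adjusted p = 0.07), not called. With wild type and deletion alone in the fit the edgeR adjusted p was 0.262, and with the replicate number added there as a block the change was -4.30 and passed (edgeR adjusted p = 0.0465). It also passed without wild-type library 2 or 3 (edgeR adjusted p = 0.043 and 0.0451), and not without library 1. Levels in A828V were 3.41, 4.74 and 4.88 CPM without carbon and 3.25 CPM on sucrose. The other deacetylase, NCU09508, had at most 3.005 CPM in any library and was not called. gh18-1 had at most 0.161 CPM and, with gh7-4 of the other polymers, was too scarce to test.

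Structural wall proteins held 8 of the 14 falls against sucrose and 6 of the 12 against wild type. In Neurospora the anchored proteins carry a GPI anchor (acw genes) and the non-anchored ones do not (ncw genes). acw-3 (chromosome III, 417349 to 420268) had 4088 CPM on sucrose, 539, 981 and 1794 CPM in wild type, 650.0, 626, 1109 and 1004 CPM in deletion libraries and 183, 316 and 178 CPM without carbon. Each library without carbon was below every other library. It fell by -4.18 (SE 0.58, edgeR adjusted p = 0.00296) against sucrose and by -2.29 (SE 0.47, edgeR adjusted p = 0.01) against wild type, the second call being lost without A828V library 1 or 3. ncw-2 (chromosome II, 2546457 to 2549054) had 1576 CPM on sucrose, 251, 427 and 437 CPM in wild type, 179, 154, 401 and 434 CPM in deletion libraries and 58.01, 71.3 and 64.4 CPM without carbon. The order of groups was the same, with wild type and deletion overlapping. It fell by -4.61 (SE 0.54, edgeR adjusted p = 0.00207) against sucrose and by -2.52 (SE 0.44, edgeR adjusted p = 0.00589) against wild type, in every fit with a library left out.

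NCU02668 (chromosome I, 3133197 to 3135871), annotated as a cell wall synthesis protein after a gene of Penicillium chrysogenum, was among the most abundant and fell in both comparisons. It had 3379 CPM on sucrose, 1295, 1793 and 2340.0 CPM in wild type, 833, 905, 1829 and 1519 CPM in deletion libraries and 271, 347 and 259 CPM without carbon. The changes were -3.53 (SE 0.47, edgeR adjusted p = 0.00272) against sucrose and -2.63 (SE 0.38, edgeR adjusted p = 0.00301) against wild type. acw-9 (chromosome III, 1817033 to 1819468) had 3352 CPM on sucrose, 2594, 2459.8 and 2408 CPM in wild type, 2529, 1549.7, 2218 and 2100.1 CPM in deletion libraries and 943, 1047 and 743 CPM without carbon, and fell by -1.88 and -1.45 (edgeR adjusted p = 0.00641 and 0.0078). All calls of NCU02668 and acw-9 held in every fit with a library left out. acw-2 (chromosome I, 6581266 to 6584222) fell by -1.95 (SE 0.32, edgeR adjusted p = 0.00459) against sucrose and -1.27 (SE 0.25, edgeR adjusted p = 0.00899) against wild type, the second lost without A828V library 3. Its libraries had 936 CPM on sucrose, 469, 538 and 755 CPM in wild type, 358, 432, 335 and 444 CPM in deletion libraries and 245, 266 and 216 CPM without carbon, 4 groups that did not overlap. In the deletion the change was -0.58 (edgeR adjusted p = 0.294).

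The other falls against sucrose were less firm. NCU00399, named after the Aspergillus protein PhiA of spore-bearing cells, had 112 CPM on sucrose and 10.7, 18.2 and 13.6 CPM without carbon, a change of -2.98 (SE 0.89, edgeR adjusted p = 0.043). It varied widely in wild type, with 4.90, 42.4 and 34.6 CPM. ncw-1 had 3235 CPM on sucrose and 889, 1079 and 1221 CPM without carbon, a change of -1.61 (edgeR adjusted p = 0.0391). Both calls were lost when any 1 A828V library was left out. acw-12, outside the 10 largest falls and picked after its values were seen, had 1081 CPM on sucrose and 252 to 380.1 CPM without carbon (log2 fold change -1.78, edgeR adjusted p = 0.0231), lost without library 1 or 2. Against wild type, acw-7, picked in the same way, fell, with 714 to 925 CPM in wild type and 429.6 to 448 CPM without carbon (-0.88, edgeR adjusted p = 0.0281), a call lost in 4 of 6 fits. The scarce NCU04033 was the 1 wall protein that rose, with 0.91 to 1.70 CPM in wild type and 3.97 to 4.44 CPM without carbon (1.77, edgeR adjusted p = 0.0414), lost in all 6. The loci of NCU00399, ncw-1, ncw-2, ncw-5 and acw-12 overlap another gene, and reads of the overlap cannot be assigned without strand.

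Not all abundant wall proteins fell. acw-5, the highest of all per length, had 1572, 1459.6 and 1516 CPM without carbon, 971 CPM on sucrose and 875, 1230.3 and 1424 CPM in wild type. Its change of 0.64 against sucrose was not called (edgeR adjusted p = 0.249). acw-6 had 982, 1122 and 782 CPM without carbon and 1901 CPM on sucrose, and was not called (log2 fold change -0.98, edgeR adjusted p = 0.172). The translation regulator gul-1, the Ssd1 protein of Neurospora, had 479 to 1068 CPM over the 11 libraries and was not called in any comparison.

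**Figure D4:**
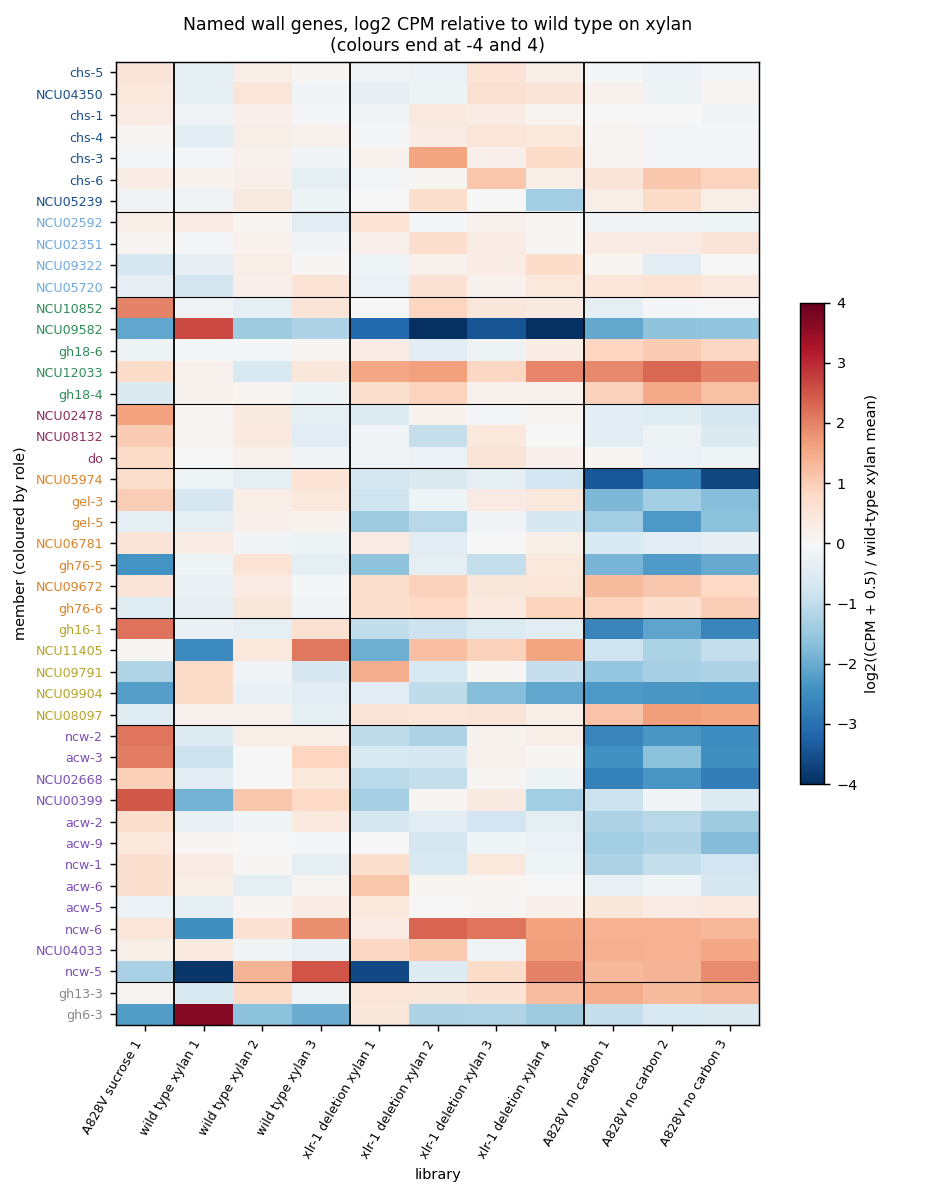
CPM of the 45 named genes in each library, as log2((CPM + 0.5) / mean of wild type on xylan), by role. The wall proteins ncw-2, acw-3, NCU02668, acw-2 and acw-9 are blue in all 3 libraries without carbon; library 1 of wild type stands apart for ncw-5, ncw-6, NCU09582 and gh6-3.

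Some values rested on libraries numbered 1. In both wild type and deletion, 4 genes were in library 1 at least 4-fold away from the mean log2 level of their group's other libraries, in the same direction. They include ncw-3 and NCU05105, which were picked after their values were seen. The share of all genes that did so is not given here. Deviations of the wild-type and deletion libraries numbered 1 correlated at 0.64 over all genes, so the count is not read as particular to wall genes. ncw-5 had 1.20, 63.5 and 144 CPM in wild type against 1.53, 16.9, 41.3 and 98.1 CPM in the deletion. ncw-3 had 46.01, 421 and 752 CPM and 80.9, 247, 628 and 546 CPM. NCU11405 had 3.60, 31.5 and 102 CPM and 5.64, 54.6, 44.9 and 70.4 CPM. These 3 were low in library 1. The glucan glucosidase NCU05105 was high there, with 103, 9.74 and 7.41 CPM in wild type against 121, 13.9, 15.3 and 12.99 CPM in the deletion. What the number stands for is not given in the labels. The conidiation markers were also lowest in library 1 of both groups, at 228.6 and 415 CPM, and their part was not tested.

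The cellulase-family gene gh6-3 (chromosome V, 6293016 to 6295011), which entered by the word glucan, rested on 1 library. It had 491, 12.04 and 9.41 CPM in wild type, 53.3, 16.3, 16.7 and 14.2 CPM in deletion libraries, 20.1, 25.3 and 25.8 CPM in A828V without carbon and 7.83 CPM on sucrose. Wild-type library 1 was far above the others. Its log2 fold change in the deletion was -2.76 (SE 1.14, edgeR adjusted p = 0.308), not called. In A828V against wild type it was -2.85 (edgeR adjusted p = 0.133), and without both xylan libraries numbered 1 it turned to 1.15 (edgeR adjusted p = 0.021). gh13-3, of the amylase family, rose, with 9.70 to 25.6 CPM in wild type and 36.4 to 41.5 CPM without carbon (1.27, edgeR adjusted p = 0.0352), lost in 5 of the 6 fits with a library left out. The glycogen branching enzyme gene NCU05429 had 445.8 to 805.5 CPM and was not called.

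The wild type without carbon was given by the authors' means, which allow xylan to be set against no carbon in 1 strain. In the authors' deposited table, 12 of the 86 genes tested by them were higher on xylan (5.91% of all genes they tested were) and 0 were lower (1.90% of all genes). The wall roles held 11 of the 12, among 79 genes, and gh6-3 was the other one. The table shares its wild-type xylan libraries with the fits above. In the authors' deposited table NCU05974 went from 24.1 to 271 FPKM (log2 fold change 3.49, their adjusted p = 3.85e-06). There gh16-1 went from 12.3 to 109.9 FPKM (log2 fold change 3.16, their adjusted p = 1.06e-05) in the authors' deposited table. For wall proteins the authors' deposited table gave NCU02668 from 122 to 831 FPKM, acw-9 from 257 to 1123 FPKM, acw-3 from 87.8 to 414 FPKM and ncw-2 from 26.1 to 158 FPKM, all called. NCU09582 rose from 3.15 to 55.2 FPKM (log2 fold change 4.13, their adjusted p = 1.09e-05) and gh6-3 from 10.5 to 86.9 FPKM in the authors' deposited table. Both are among the genes whose wild-type library 1 stood far above the others in CPM. The last 4 called in the authors' deposited table were NCU09904, gh76-5, gel-5 and NCU11405, with log2 fold changes of 2.64, 2.27, 2.25 and 2.84. For NCU11405 the wild-type libraries on xylan varied widely, with 3.60, 31.5 and 102 CPM. Chitin synthases were not called: chs-1 went from 82.9 to 81.1 FPKM in the authors' deposited table.

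**Figure D5:**
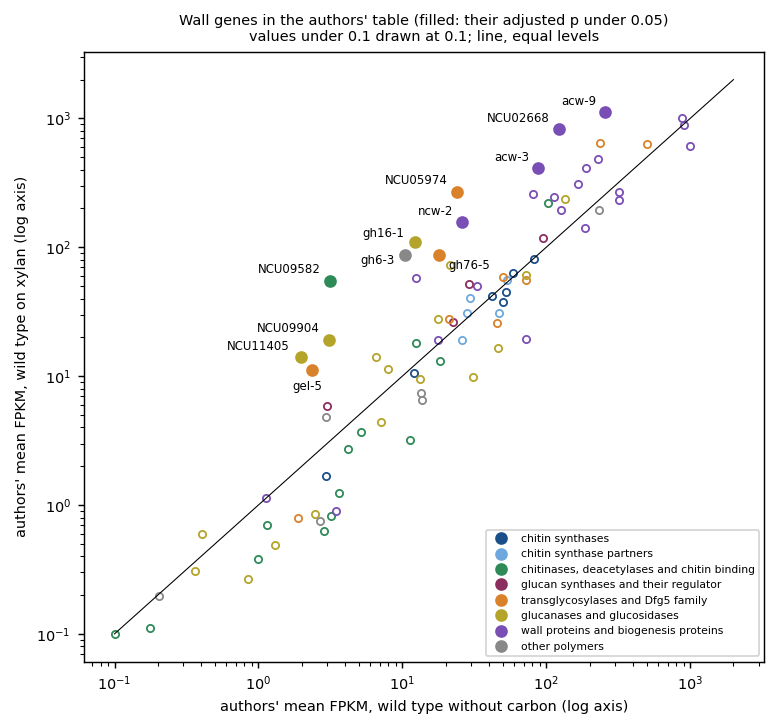
The authors' mean FPKM in wild type without carbon (x) and on xylan (y), both log axes, for the 87 genes by role; filled points have the authors' adjusted p under 0.05 and the line marks equal levels. All 12 filled genes lie above the line.

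Between the strains, both without carbon, the authors' deposited table called 1 of 86 genes higher in A828V (2.94% of all genes they tested) and 2 lower (1.57%). In the authors' deposited table the exoglucanase NCU09791 fell from 53.6 to 7.65 FPKM (log2 fold change -2.81, their adjusted p = 1.04e-10). ncw-6 went from 83.6 to 30.3 FPKM and ncw-5 from 14.4 to 58.3 FPKM in the authors' deposited table, both called. Genes that were low in A828V without carbon in the count fits were not called here: in the authors' deposited table gh16-1 went from 14.2 to 21.4 FPKM, NCU05974 from 27.7 to 31.7 FPKM, ncw-2 from 30.1 to 31.6 FPKM and acw-3 from 101 to 91.5 FPKM. In A828V without carbon ncw-5 had 60.5, 64.3 and 93.3 CPM and ncw-6 had 44.97, 45.1 and 41.9 CPM. On xylan, which is not in that comparison, ncw-6 had 2.70, 25.5 and 62.6 CPM in wild type. NCU09791 had 16.5, 19.3 and 20.5 CPM in A828V without carbon, 21.01 CPM on sucrose and 83.3, 45.4 and 31.1 CPM in wild type on xylan, and the count fit did not call it.

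Pathways that feed the wall were followed in 3 lists. Those of glucosamine steps and of mannosylation or GPI anchors were drawn by product name, and that of cell wall integrity signalling by chosen loci. Of 7 genes for UDP-N-acetylglucosamine, the precursor of chitin, and other glucosamine steps, 1 fell without carbon against sucrose (14.3%, against 10.4% of all genes), the Alg7-type transferase NCU10762 of protein glycosylation (54.2 to 16.5 CPM, log2 fold change -1.72, edgeR adjusted p = 0.027). The aminotransferase gfa1, which commits sugar to chitin, had means of 771 CPM on sucrose and 837 CPM without carbon (edgeR adjusted p = 0.881). Of 35 genes named for mannosylation or GPI anchors, which dress wall proteins, 3 fell against sucrose (8.57%, near the 10.4% of all genes). This list also holds the excluded wall genes NCU06381 and NCU09175. They were NCU03055, the Kre5-named NCU05680 and the GPI inositol-deacylase NCU08021, with log2 fold changes of -1.16, -1.27 and -1.13 (edgeR adjusted p = 0.0394, 0.0286 and 0.0193). Against wild type on xylan, the mannosyltransferase gene NCU05916 rose by 1.33 and the Och1-named NCU07338 fell by 1.60 on the log2 scale (edgeR adjusted p = 0.0424 and 0.00649), each 1 of 35 (2.86%, against 9.29% and 11.5% of all genes). None of 10 genes of cell wall integrity signalling, the kinase cascade that answers wall stress, was called in the 3 comparisons. Of all genes, 8.39% rose and 10.4% fell against sucrose, and 9.29% and 11.5% against wild type. So few genes cannot set 0 calls apart from these shares. No gene of the 3 lists was called in the deletion, where 0.0234% of all genes were higher and 0.573% lower. NCU09175 had means of 3160 CPM on sucrose and 1089 CPM without carbon (edgeR adjusted p = 0.0549).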

How the data were processed

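Total RNA of whole fungus was sequenced in 11 libraries, prepared by standard Illumina protocols per the labels' protocols. Tools named in the submitters' processing notes were TopHat2 2.04, HTSeq 0.6, Cufflinks 2.02 and Cuffdiff 2.02. Not given in the sources used here are their settings, the genome build and whether reads kept strand. For each library the authors deposited raw counts of reads over 9758 genes. The 5 entries in each that name no gene, 6.34% to 29.57% of a table's total, were left out. The deposited FPKM tables hold levels the authors scaled by length and library size. In the authors' deposited comparison tables stand group means in FPKM, log2 fold changes and adjusted p-values, each table normalized on its own, and their 12 columns of single libraries were not used. Contig names are those of assembly NC12, and loci are given with starts counted from 1. All 87 genes matched RefSeq loci of NC12 with the same ends, and 45 have a RefSeq symbol.

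The main test was edgeR 4.0.16 (R 4.3.3) on these counts, with TMM factors, filterByExpr at a count minimum of 10, and the 2-sided quasi-likelihood test. P-values were adjusted by Benjamini and Hochberg's method over 8557 genes, at a threshold of 0.05. All 11 libraries entered 1 fit with 7 residual degrees of freedom and a common biological coefficient of variation of 0.411. SE is the log2 fold change divided by the root of F. The script was tested on simulated counts whose spread was set smaller than that of these data. That test therefore does not show how often calls made here are right. Alternatives were RLE size factors, DESeq2 1.42.0, limma 3.58.1 on log2(FPKM + 1) for genes at 1 FPKM or more in at least 3 libraries, no count filter, the compared groups alone, each library left out, the replicate number as a block with the compared groups alone, and, chosen after seeing the data, both xylan libraries numbered 1 left out.

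Groups and replicate numbers are those of the labels. Since these name no separate cultures, p-values cover the spread between the sampled libraries, which may be technical. Within-group correlations of log2 CPM were 0.986 to 0.993 for A828V without carbon, 0.914 to 0.971 for wild type and 0.88 to 0.944 for the deletion. No pair agreed within sampling noise. The main fit did not use the numbers as pairs. They entered as a block in an alternative fit only. Deviations of same-numbered wild-type and deletion libraries correlated at 0.64, 0.264 and 0.252. Those of different number gave -0.563 to 0.247, so numbers 2 and 3 are not set apart from each other. The genes, roles and lists were chosen with earlier results of these data known. Named were all chitin and glucan synthase genes, the up to 10 largest rises and falls called per comparison, the 5 highest in FPKM, and the up to 5 most raised and lowered among the authors' calls at 10 FPKM or more, 45 in all. Others carry a remark or stand with their role. No sequence is shown.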

Additional observations from a re-analysis of the deposited data

Results flagged for a closer look

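In 12 of the 87 genes a single library of the 4 of the xlr-1 deletion on xylan lay apart from the rest by Dixon's test at the 95% level. The test weighs the gap against the range, so a small difference can pass. Chance gives this in about 1 of 20 groups of normally distributed values. Whether these CPM, taken without logs, are so distributed was not tested. All 12 were in deletion library 1 or 4. The share of all genes with such a library is not given here, so the count is not read as particular to wall genes. Over all genes, the lowest correlation of log2 CPM within the deletion group was 0.88, that of library 4 with libraries 1 and 2. Library 1 was highest for 4 genes. The anchored wall protein acw-6 had 2612 CPM there, against 1195 to 1289 CPM in the others, and the cellulase-family gene gh6-3 had 53.3 CPM against 14.2 to 16.7 CPM. The exo-beta-1,3-glucanase NCU04850 had 142 CPM against 15.4 to 20.2 CPM, and the glucan glucosidase NCU05105 had 121 CPM against 12.99 to 15.3 CPM. It was lowest for acw-12, with 229.8 CPM against 422 to 454 CPM, and for gh76-7, with 152 CPM against 164 to 166 CPM. Library 4 was highest for 5 genes. They were the glucosidase NCU03914, with 76.7 CPM against 48.7 to 52.9 CPM, and gh13-3, with 35.7 CPM against 20.5 to 22.8 CPM. The locus of NCU03914 overlaps another gene, and its FPKM lay closer together, at 14.2 in library 4 against 11.65 to 12.41 in the others. Scarcer were the alpha-1,3-glucanase NCU04691, with 3.78 CPM against 0.181 to 0.597 CPM, the chitinase gh18-8, with 1.84 CPM against 0.816 to 0.887 CPM, and the wall protein NCU10436, with 3.10 CPM against 1.09 to 1.37 CPM. Library 4 was lowest for the exo-beta-1,3-glucanase NCU08097, with 2.71 CPM against 3.26 to 3.31 CPM. None of the 12 was called between deletion and wild type by edgeR; NCU03914 was called higher by DESeq2.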

How the results depend on the processing

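Calls without carbon varied between the fits, and the sucrose group is 1 library. The fits differ in more than 1 respect, among them the libraries, the measure, the normalization and the genes tested. Between no carbon and sucrose, 10 of 17 calls held in every fit with a library left out, and against wild type 7 of 20. In the sucrose comparison the 3 higher and 14 lower became 9 and 9 with limma on FPKM, 23 and 34 with the compared groups alone, and 7 higher without both xylan libraries numbered 1; with 1 library left out, 0 to 1 were higher and 10 to 11 lower. Against wild type the 8 higher became 15 with limma and 14 with the compared groups alone, and with 1 library left out 1 to 5 were higher and 6 to 14 lower. In the deletion DESeq2 called 2 higher, the replicate block, with the compared groups alone, called 1 lower where the compared groups alone called 0, and leaving out 1 library called 0 to 1 lower. With the compared groups alone the block gave 9 higher and 12 lower between A828V and wild type, against 14 and 14 without it, and same-numbered libraries correlated at -0.103, -0.234 and -0.174 and so were not taken as pairs. No paired analysis was possible for sucrose because its library carries no shared number. gh6-3 turned from -2.85 to 1.15 against wild type without both xylan libraries numbered 1. RLE size factors and the absence of a count filter left each of the 6 counts within 1.5 times, as DESeq2 did for the 4 that compare A828V. Over the named genes and alternatives, 357, 521 and 624 values kept their side of the threshold in the sucrose, wild-type and deletion comparisons. Direction was compared only where the main or the alternative fit called the gene, so these values can include uncalled changes of sign. Calls were lost in 17, 52 and 0 values and gained in 29, 9 and 4, and the cause was not tested. The shares of all genes called in these fits are not given, so the counts are not read as particular to wall genes. The chitinase gene gh18-1 had at most 2 reads in any library and gh7-4, of the other polymers, at most 7, and neither was tested.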
